A study of Mus musculus with 20 samples.

Results

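Gastric genes are genes of the stomach lining that human serrated lesions of the colon are known to switch on. This account follows 10 of them in mouse intestine: Anxa10, Aqp5, Muc5ac, Muc6, Tff1, Tff2, Gkn1, Gkn2, Vsig1 and Ctse. They were taken by name from the array's own annotation, which gave 14 probes of 56605, and they make up 10 of the 25034 genes that could be named. Of these, 6 genes had 1 probe and 4 had several.

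Expression was measured on 20 arrays, each with RNA from the intestinal tissue of 1 C57BL6/j mouse. In the first experiment, 6 Cre control mice (VillinCreER/0) and 6 BRAFV600E mice (VillinCreER/0 with BrafV600E-LSL/+), aged 8 to 12 weeks, all received 3 daily doses of tamoxifen, and tissue was taken 3 days after the last dose. The Villin promoter drives the tamoxifen-inducible Cre in the gut epithelium, so the mutant allele was switched on there and not in other cells of the tissue. In the second experiment, mice were given 2 injections of tamoxifen and then 3 injections of the MEK inhibitor PD184352 (MEKi, 4 mice) or of its carrier (Vehicle, 4 mice). The labels do not give a genotype for these 8 mice, and the study's text describes them as mice expressing mutant Braf. MEK is the kinase that BRAF activates, so the first comparison asks what the mutant allele did and the second which of its effects needed MEK.

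In the healthy stomach, surface (pit) cells secrete the gel-forming mucin Muc5ac together with the trefoil peptide Tff1 and the gastrokines Gkn1 and Gkn2. Mucous neck cells and antral glands make the mucin Muc6 and the trefoil peptide Tff2. Brunner glands of the first part of the duodenum, just past the pylorus, make Muc6 and Tff2 as well. Anxa10 is a calcium- and phospholipid-binding annexin, Aqp5 a water channel, Vsig1 a cell adhesion protein of stomach epithelium and Ctse the aspartic protease cathepsin E.

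Between BRAFV600E and Cre control mice, 2 of the 7 members that could be tested were called, beside 12.9% of all genes. Between MEKi and Vehicle mice 1 of 6 was called, beside 1.94% of all genes. By the probes with the higher mean over all 20 arrays, Aqp5 and Anxa10 were well above background on every BRAFV600E and Vehicle array. By these probes they were so on 1 and 0 of the 6 Cre control arrays. The other Aqp5 probe was well above background on all 20 arrays. Aqp5 fell under MEKi. Tff1, Tff2, Ctse and Vsig1 were high on the same pair of arrays, BRAFV600E replicate 2 and Vehicle replicate 2, and Gkn2 on the first of them. Muc5ac and Gkn1 were not high on either.

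Levels are given as log2 of the processed signal minus the 75th percentile of the array, so 0 is the level of a fairly bright probe, and a probe is called well above background by the scanner software's own flag. A level depends on the probe, so levels are compared between arrays and never between genes. All 14 probes were kept, and the brightest probe of a gene stands for it. Between 60.8% and 76.8% of the spots that are not controls were well above background on an array. Arrays lay on 3 slides. All Cre control arrays shared slide 1 with replicates 1 and 2 of BRAFV600E, whose other replicates were on slide 2. Slide 3 carried the second experiment, with MEKi in 1 row and Vehicle in the other, so that row and treatment cannot be told apart. The Y-linked genes Ddx3y, Eif2s3y and Uty gave signal on 3 of 6 Cre control, 4 of 6 BRAFV600E, 2 of 4 Vehicle and 4 of 4 MEKi arrays. The probe of Kdm5d, also Y-linked, was well above background on every array. The Y-linked level used below as a covariate is the mean of these genes, Kdm5d included. On every array, all 8 intestinal epithelium markers (among them Vil1, Cdx2 and Fabp2) were well above background, a flag that most spots passed. Their mean level was 4.72 on BRAFV600E replicate 2, against 5.86 to 6.37 on the other BRAFV600E arrays. On Vehicle replicate 2 it was 5.85, against 6.39 to 6.61 on the other Vehicle arrays. The probe of Braf, the targeted gene (chromosome 6, 39553442 to 39553501), cannot tell the mutant allele from the normal allele and was at −0.43 ± 0.36 (SD, n = 6) in BRAFV600E against −0.85 ± 0.34 (SD, n = 6) in Cre control (limma adjusted p = 0.173).

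Promoters are shown first for the pair of genes that were well above background on all BRAFV600E and Vehicle arrays, and for Gkn1 as a member whose groups overlapped. Of the 10 genes, 6 were matched by symbol in the RefSeq promoter table (build GRCm38.p6): Anxa10, Aqp5, Gkn1, Gkn2, Muc6 and Vsig1. Each sequence holds the 250 bases before the annotated start, 5′ to 3′ on the gene's strand. Capitals mark matches on either strand to TGANTCA, the motif of AP-1 factors, and to CCGGAA, a motif of ETS factors. Both families of factors act downstream of ERK.
Anxa10: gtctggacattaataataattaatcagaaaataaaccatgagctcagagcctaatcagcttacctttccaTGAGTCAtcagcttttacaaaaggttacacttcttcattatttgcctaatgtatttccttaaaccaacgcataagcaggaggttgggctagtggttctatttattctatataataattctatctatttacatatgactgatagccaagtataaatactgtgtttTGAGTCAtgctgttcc
Aqp5: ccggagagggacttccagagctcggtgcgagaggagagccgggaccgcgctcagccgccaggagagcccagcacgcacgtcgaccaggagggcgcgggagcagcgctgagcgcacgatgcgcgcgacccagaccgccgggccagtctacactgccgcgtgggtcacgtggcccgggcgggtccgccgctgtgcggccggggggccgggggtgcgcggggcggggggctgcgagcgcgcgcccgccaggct
Gkn1: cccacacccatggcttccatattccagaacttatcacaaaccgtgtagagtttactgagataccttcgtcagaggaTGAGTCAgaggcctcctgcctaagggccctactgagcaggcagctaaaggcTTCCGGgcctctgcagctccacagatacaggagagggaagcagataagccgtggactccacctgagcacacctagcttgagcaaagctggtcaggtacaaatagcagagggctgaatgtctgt
These windows are chr8:62123194-62123443 (minus strand), chr15:99590778-99591027 (plus strand) and chr6:87350916-87351165 (minus strand) of GRCm38.p6. The Anxa10 window held 2 matches to TGANTCA, with first bases at −180 and −16 from the start. Over all 32851 promoters of the table cut to the same window, 6.75% held at least 1 such match and 0.338% held 2 or more. The Aqp5 window held neither motif. The Gkn1 window held 1 match to each, at −174 and −123, and 12.0% of all windows held CCGGAA. The windows of Gkn2, Muc6 and Vsig1 held neither. A match is a run of letters in this window and says nothing of whether a factor binds there.

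Aqp5, the water channel, separated BRAFV600E from Cre control arrays without overlap. Its brighter probe (mm9 chromosome 15, 99425138 to 99425197) read 0.81, 0.73, 0.33, −0.42, −0.44 and −1.02 on BRAFV600E replicates 1 to 6. On Cre control replicates 1 to 6 it read −6.65, −5.97, −6.43, −4.11, −7.19 and −6.50, and only replicate 4 was well above background there. The BRAFV600E levels lay within 1 band and the nearest control array was still far below all of them. The level of Aqp5 rose by a log2 difference of 6.14 (SE 0.48, limma adjusted p = 1.89e-05, higher on 6 of 6 arrays). Because 5 of 6 control arrays were not well above background, the size of this difference depends on how background signal is treated. With normexp background correction, which compresses low signals by an added offset of 50, the difference was 3.26 for Aqp5 and 4.79 for Anxa10, both still called. Without BRAFV600E replicate 2 the Aqp5 difference was 5.99 (SE 0.51, limma adjusted p = 6.72e-05), and within slide 1 alone it was 6.91 (limma adjusted p = 0.00238). Across all genes 12.9% were called in this comparison, 6.4% as higher, and the groups did not overlap for 7.5%. Without replicate 2, 8.94% were called, and within slide 1, 3.84%.

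Aqp5 was as plainly split by the MEK inhibitor. Vehicle replicates 1 to 4 read −1.32, 0.70, −0.06 and −0.62. MEKi replicates 1 to 4 read −6.40, −5.61, −5.39 and −5.03, with replicates 3 and 4 well above background. Each Vehicle array was above each MEKi array, and the range of MEKi levels fell inside that of the Cre control arrays of the other experiment. Only 1 of 6 Cre control and 2 of 4 MEKi readings were well above background. These ranges thus lie largely near background and do not measure a return to the control level, and no test was run across the experiments. Aqp5 fell by 5.28 (SE 0.45, limma adjusted p = 0.00367), and the difference was −4.94 without Vehicle replicate 2 (SE 0.39, limma adjusted p = 0.0062). With normexp it was −3.44 and called. Of all genes tested 1.94% were called here, 0.889% as lower, and the groups did not overlap for 12.2%. Without Vehicle replicate 2, 1.79% were called.

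A second Aqp5 probe (chromosome 15, 99424655 to 99424714) was well above background on all 20 arrays and moved in the same direction by less. In Cre control and MEKi it was the brighter of the pair, with means of −3.82 and −4.0, against −6.14 and −5.61. It read −3.08 to −1.89 in BRAFV600E and −4.37 to −3.22 in Cre control, a difference of 1.26 (SE 0.28, limma adjusted p = 0.0158 with every probe tested). In Vehicle it read −4.07 to −2.32 and in MEKi −4.42 to −3.53, where the groups overlapped, because Vehicle replicate 1 was at the level of the MEKi arrays (difference −1.07, SE 0.39, limma adjusted p = 0.28). With every probe tested on its own, 9.6% of probes were called between BRAFV600E and Cre control, and 0.935% between MEKi and Vehicle.

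Anxa10, the annexin, was also well above background on every BRAFV600E and Vehicle array, at levels that varied far more. Its brighter probe (chromosome 8, 64536504 to 64536563) read 1.88, 5.84, −1.71, 0.46, 2.70 and 0.05 on BRAFV600E replicates 1 to 6. It read −6.03, −7.09, −5.99, −6.61, −6.40 and −5.75 on Cre control replicates 1 to 6, and none of these was well above background. All 6 BRAFV600E arrays carried a measured level and no control array did. By this probe and on this scale, the mean Anxa10 signal of BRAFV600E mice was thus at least 113-fold that of Cre control mice. Here the bound sets the mean of the BRAFV600E arrays against, on each control array, the higher of the probe's own signal and the dimmest signal that passed the flag. The fitted log2 difference was 7.85 (SE 0.97, limma adjusted p = 4.98e-04). With normexp background correction it was 4.79, less than the bound's own log2 of 6.82, so the bound does not hold on that scale. Replicate 2 was the highest, and without it the bound was 62.1-fold (fitted difference 6.99, SE 0.64, limma adjusted p = 1.12e-04). Within slide 1, on which only BRAFV600E replicates 1 and 2 lay, the fitted difference was 10.17 (limma adjusted p = 0.00164). On slide 2 the BRAFV600E arrays read −1.71 to 2.70.

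In the second experiment Anxa10 read −2.23, 4.62, −2.33 and −0.72 on Vehicle replicates 1 to 4. MEKi replicates 1 to 4 read −5.19, −6.16, −4.67 and −3.50, of which replicate 2 was not well above background. Every Vehicle array lay above every MEKi array, but Vehicle replicate 2 stood far above the other Vehicle arrays. The difference was −4.71 (SE 1.48), and it did not pass the threshold (limma adjusted p = 0.167). Without Vehicle replicate 2 the difference was −3.12, its SE 0.65 and the adjusted p 0.0678 (limma). With the Y-linked level as covariate it was −2.60 (limma adjusted p = 0.534). The order of the group means was Cre control (−6.31 ± 0.49), MEKi (−4.88 ± 1.11), Vehicle (−0.17 ± 3.27) and BRAFV600E (1.54 ± 2.60), each with its SD over 6, 4, 4 and 6 arrays. Cre control and MEKi overlapped in range, as did Vehicle and BRAFV600E, and no test was run across the experiments.

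A second Anxa10 probe (chromosome 8, 64542573 to 64542632), whose accession differs from that of the first, was dimmer. It read −5.15 to 0.66 in BRAFV600E and −7.28 to −5.19 in Cre control, with 5 of 6 and 2 of 6 arrays well above background, and its difference of 2.82 did not pass the threshold when every probe was tested (SE 0.84, limma adjusted p = 0.0524). BRAFV600E replicate 2 and Vehicle replicate 2, at 0.66 and −0.95, were its highest arrays too.

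**Figure D1:**
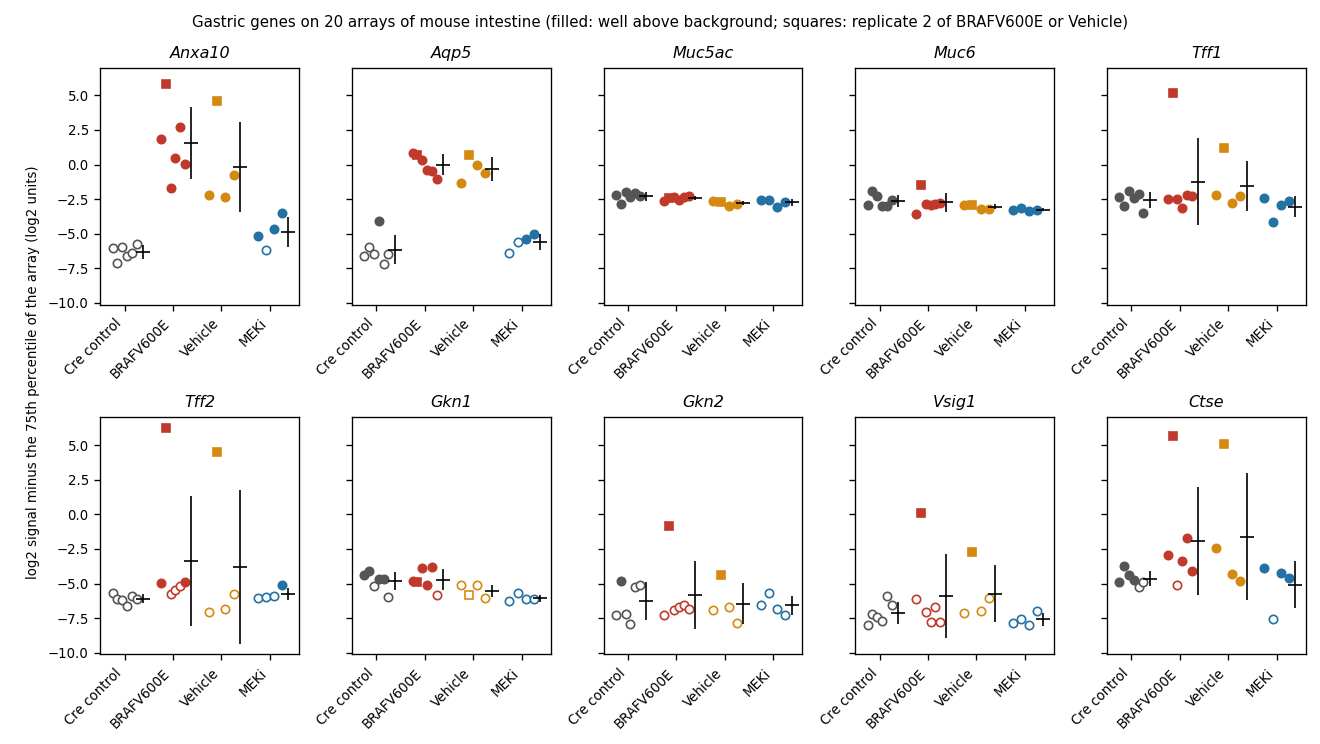
Level of each of the 10 gastric genes on each of the 20 arrays (vertical axis: log2 signal minus the 75th percentile of the array, horizontal axis: group; points are arrays in replicate order, filled where the probe was well above background, squares mark replicate 2 of BRAFV600E and of Vehicle, and the bar beside each group is the mean ± SD). Aqp5 and Anxa10 lie higher on all 6 BRAFV600E arrays than on any Cre control array, whereas Tff1, Tff2, Vsig1 and Ctse are high on both square points and Gkn2 on that of BRAFV600E.

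Of the 10 genes, 7 passed the background flag on 6 or more of the 12 arrays of the first experiment and were tested, and 2 of the 7 were called, both higher, beside 12.9% of all genes called and 6.4% called as higher. In the second experiment 6 passed it on 4 or more of 8 arrays, and 1 was called, Aqp5, lower, beside 1.94% of all genes called and 0.889% called as lower. The genes not tested were Tff2, Gkn2 and Vsig1 in the first experiment and these and Gkn1 in the second. Anxa10 passed the filter of the first experiment through its 6 BRAFV600E arrays alone, and Aqp5 through 6 BRAFV600E arrays and 1 Cre control array. In the second, Aqp5 passed on 4 Vehicle and 2 MEKi arrays. The called members thus entered the count through the group where they were high, under a filter set alike for all genes. Over the tested members the median log2 difference was 1.31 in BRAFV600E against Cre control, beside −0.02 over all genes, and 0.11 without BRAFV600E replicate 2. In MEKi against Vehicle it was −2.49, beside 0.04 over all genes, and −0.92 without Vehicle replicate 2.

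The trefoil peptides Tff1 and Tff2 are neighbours on chromosome 17, and both were high on BRAFV600E replicate 2 and Vehicle replicate 2. Tff2, which is made by mucous neck cells and Brunner glands, read 6.23 on BRAFV600E replicate 2 and −5.75 to −4.91 on the other 5 BRAFV600E arrays. It read 4.52 on Vehicle replicate 2 and −7.05 to −5.78 on the other 3, and −6.63 to −5.67 in Cre control and −6.08 to −5.13 in MEKi. Its probe was well above background on 5 of 20 arrays, and 3 of these (BRAFV600E replicates 1 and 6 and MEKi replicate 4) were near the background level, at −4.96, −4.91 and −5.13. The gene was therefore not tested.

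Tff1, the trefoil peptide of surface cells, read −2.49, 5.18, −2.49, −3.15, −2.21 and −2.25 on BRAFV600E replicates 1 to 6 and −3.48 to −1.91 in Cre control. Vehicle replicates 1 to 4 read −2.22, 1.16, −2.76 and −2.28, and MEKi arrays −4.18 to −2.45. Apart from the replicate 2 arrays the levels overlapped in all groups. The fitted difference in the first comparison was 1.31 (SE 1.17, limma adjusted p = 0.489) and 0.02 without BRAFV600E replicate 2 (SE 0.29, limma adjusted p = 0.968). In the second it was −1.52 (SE 0.85, limma adjusted p = 0.442) and −0.62 without Vehicle replicate 2 (SE 0.41, limma adjusted p = 0.527). The older array annotation places this probe on chromosome 17, 31298471 to 31298530, and the newer on chromosome 5, 143285707 to 143285766, so what it detects besides Tff1 is not settled.

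Ctse, cathepsin E, read −2.95, 5.69, −5.13, −3.35, −1.72 and −4.13 on BRAFV600E replicates 1 to 6 and −5.29 to −3.72 in Cre control. In Vehicle it read −2.47, 5.10, −4.32 and −4.79, and in MEKi −3.90, −7.55, −4.25 and −4.61. Besides the replicate 2 arrays, BRAFV600E replicates 1, 4 and 5 were above all Cre control arrays and replicates 3 and 6 were within their range. The difference was 2.72 (SE 1.44, limma adjusted p = 0.222), and 1.19 without BRAFV600E replicate 2 (SE 0.51, limma adjusted p = 0.156). A fit that took slide as a block gave 6.02 and called Ctse (limma adjusted p = 0.043, with 8.24% of all genes called). That value rests on BRAFV600E replicates 1 and 2, since only they share a slide with the controls, and within slide 1 it did not pass the threshold (limma adjusted p = 0.105). In MEKi against Vehicle it was −3.46 (SE 2.09, limma adjusted p = 0.483), and −1.22 without Vehicle replicate 2 (SE 0.95, limma adjusted p = 0.595).

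Vsig1 and Gkn2 were below background on nearly all arrays. Vsig1, the adhesion protein, was well above background on 2 of 20 arrays, BRAFV600E replicate 2 at 0.13 and Vehicle replicate 2 at −2.70, and all others lay between −8.02 and −5.92. Gkn2 was well above background on 3 arrays, BRAFV600E replicate 2 at −0.87, Vehicle replicate 2 at −4.35 and Cre control replicate 2 at −4.80. The pattern of Gkn2 on Vehicle replicate 2 was therefore close to what a control array also showed.

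Muc5ac did not share this pattern, and Muc6 did so in part. Muc5ac, the surface mucin, read −2.66 to −2.28 in BRAFV600E, −2.87 to −2.0 in Cre control, −2.98 to −2.62 in Vehicle and −3.10 to −2.55 in MEKi. These 4 ranges overlapped. BRAFV600E and Cre control differed by −0.15 (SE 0.15, limma adjusted p = 0.554), a difference that turned to 0.66 without scaling between arrays, where the median of all genes moved by 0.81 as well, and MEKi and Vehicle by 0.06 (SE 0.16, limma adjusted p = 0.905). Muc6, the gland mucin, read −3.57 to −1.45 in BRAFV600E and −3.0 to −1.90 in Cre control by its brighter probe (chromosome 7, 148822365 to 148822424), a difference of −0.13 (SE 0.31, limma adjusted p = 0.818) that turned to 0.68 without scaling. Its highest array was BRAFV600E replicate 2, followed by Cre control replicate 2 at −1.90, and the other BRAFV600E arrays were at most −2.76. In MEKi it read −3.39 to −3.12 and in Vehicle −3.20 to −2.90 (difference −0.21, SE 0.13, limma adjusted p = 0.488). A second probe, which carries the Muc6 name in the newer annotation and lies at 148819902 to 148819961 of the same chromosome, was well above background on 1 of 20 arrays, BRAFV600E replicate 2, at 1.24, and all others lay between −7.94 and −5.97. Both Muc6 probes were thus highest on BRAFV600E replicate 2, and neither was raised on Vehicle replicate 2.

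Gkn1, the other gastrokine, read −5.83 to −3.84 in BRAFV600E and −5.96 to −4.07 in Cre control, a difference of 0.08 (SE 0.38, limma adjusted p = 0.915). It was below background on all 8 arrays of the second experiment, and its second probe was below background on all 20.

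**Figure D2:**
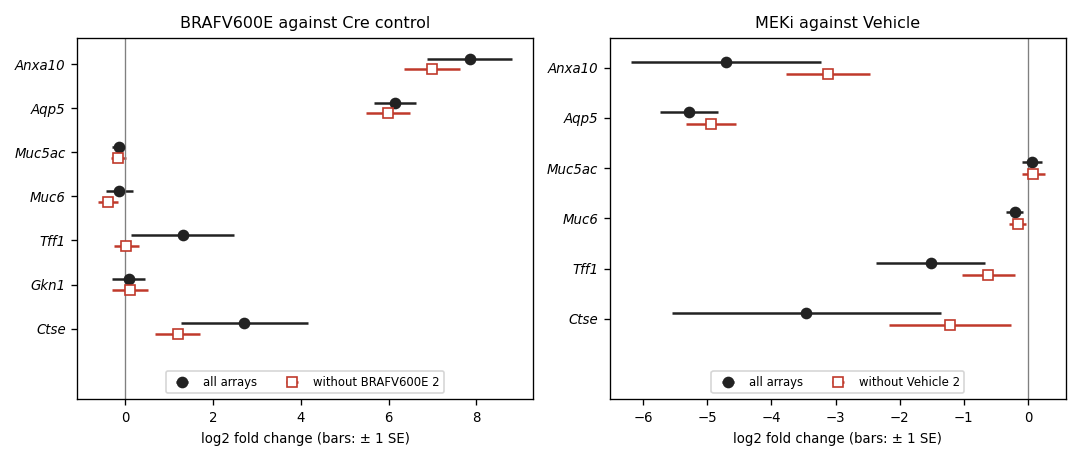
Fitted log2 fold change (horizontal axis, bars ± 1 SE) of the tested gastric genes with all arrays (black) and without replicate 2 of BRAFV600E or of Vehicle (red, open). Aqp5 moves from 6.14 to 5.99 and from −5.28 to −4.94, whereas Ctse moves from 2.72 to 1.19 and from −3.46 to −1.22.

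BRAFV600E replicate 2 and Vehicle replicate 2 differed from the other arrays of their experiments in more than these genes. On BRAFV600E replicate 2, 27 of 21854 genes were over 3 log2 units above every other array of the experiment, and on Vehicle replicate 2, 140 of 21347. The lists shared 19 genes, 70.4% of the first and 13.6% of the second. Anxa10, Ctse, Tff1, Tff2 and Vsig1 were among the 19. Named after their values were seen, the others included Mucl3, Nkx6-3 (a transcription factor of the antrum), Cybrd1, Slc40a1, S100g and Trpv6, the last 4 of which serve iron and calcium uptake in the duodenum.

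Marker lists place what else was on this pair of arrays. Nkx6-3 read 2.79 on BRAFV600E replicate 2 and 2.92 on Vehicle replicate 2, against −6.51 to −3.09 on all other arrays of these groups. Gkn3, a gastrokine of neck and antral gland cells, read 5.23 and 3.0 there, against 0.61 to 2.17 on the other BRAFV600E and 0.21 to 0.84 on the other Vehicle arrays. Pdx1, a factor of antrum and duodenum, read 3.08 and 3.70, against −2.31 to 1.03 and −3.73 to −3.27. The duodenal hormone genes stood apart on Vehicle replicate 2 and not on BRAFV600E replicate 2. On BRAFV600E replicate 2, Gip, Sct and Cck read 1.5, 5.79 and 4.60, inside the ranges of the other BRAFV600E arrays (0.99 to 2.11, 4.95 to 5.99 and 3.84 to 4.72). On Vehicle replicate 2 they read 1.92, 5.85 and 4.0, above the other Vehicle arrays (0.71 to 1.40, 4.46 to 5.33 and 2.39 to 2.85). Lct, the lactase of the jejunal brush border, was low, at −2.26 and 3.67 against 5.47 to 7.08 and 7.07 to 7.45. Alpi, the intestinal alkaline phosphatase, was highest on this pair, at 7.21 and 7.82 against at most 6.12 on every other array.

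Atp4a and Atp4b, the proton pump of the parietal cells that secrete acid, were well above background on all 20 arrays and not raised on this pair. They read −3.88 and −3.01 on BRAFV600E replicate 2, against −4.0 to −2.93 and −2.96 to −2.09 in Cre control. On Vehicle replicate 2 they read −2.80 and −3.21, against −2.71 to −2.43 and −3.18 to −2.81 on the other Vehicle arrays. The chief cell list held 4 measured genes, whose mean level was highest on this pair, at −3.20 on BRAFV600E replicate 2 and −3.51 on Vehicle replicate 2, against −5.19 to −3.54 on all other arrays. Pepsinogen C (Pgc), of that list, read −2.53 on both, against at most −4.03 elsewhere. The rest of that list did not stand apart. Pga5 read −2.57 and −4.18 on this pair, Cblif −2.53 and −3.07, and Chia1 −5.16 and −4.26. Each of these lay within its range on the other arrays, and Chia1 was not well above background on BRAFV600E replicate 2. Of the gastric endocrine list, Gast read −2.12 and −1.88 on this pair, against at most −2.79 elsewhere. Ghrl (3.28 and 3.39) and Hdc (−4.22 and −3.18), also of that list, lay within their ranges on the other arrays. Sox2, a stomach and oesophagus factor, was not well above background on any array. The 11 exocrine pancreas genes averaged 7.75 on Vehicle replicate 2 and between −3.13 and −2.21 on every other array, BRAFV600E replicate 2 included, where they averaged −3.04. How the tissue was dissected, and the part of these neighbouring tissues in the gastric gene levels, was not tested. In such bulk RNA, more cells of a type and more RNA per cell cannot be told apart.

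**Figure D3:**
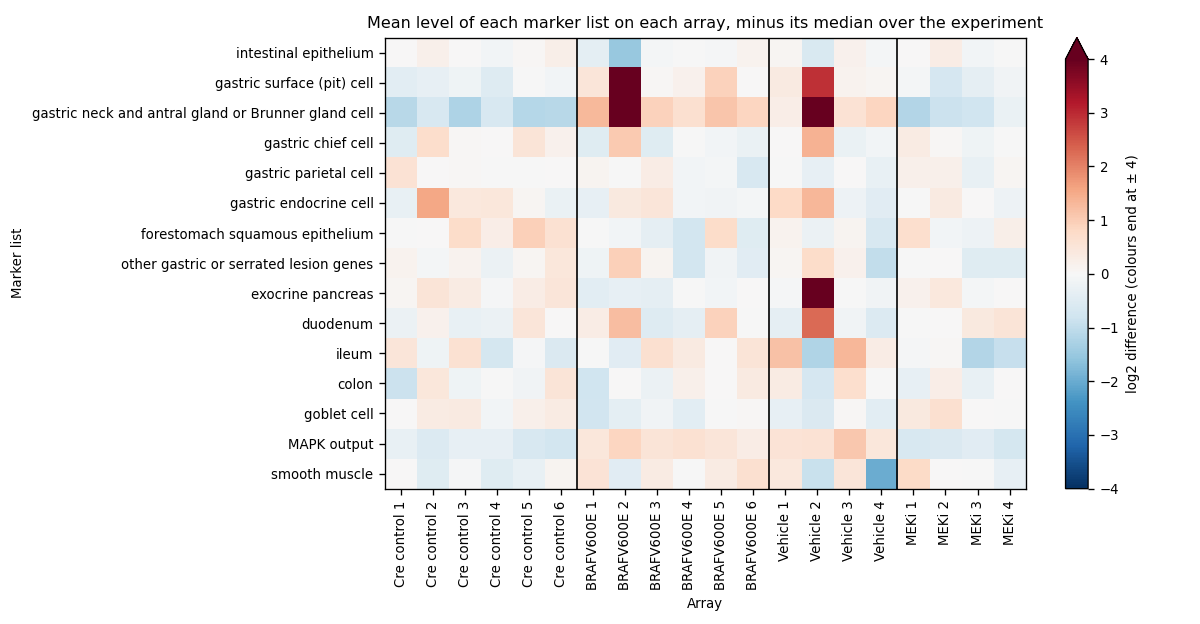
Mean log2 level of each marker list (rows) on each array (columns), minus the median of that list over the 12 or the 8 arrays of its experiment (colour, log2 units). BRAFV600E replicate 2 and Vehicle replicate 2 stand out in the gastric surface and the neck, antral or Brunner gland lists. Both lists hold members of the gastric set. Of the 5 surface genes that are not members, Mucl3 is high on both arrays. Capn8, at −3.54 and −3.39, is highest there by a small margin. Psca (−3.65 and −5.47), Capn9 (1.26 and 0.86) and Cldn18 (−0.70 and −2.32) are not raised on either. Vehicle replicate 2 alone stands out in the exocrine pancreas list.

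After replicate 2, Anxa10 was next highest on BRAFV600E replicates 5 and 1, at 2.70 and 1.88, and on the same arrays Pdx1 was next highest, at 1.03 and 0.75, Gkn3 at 2.11 and 2.17, and Lct lowest apart from replicate 2, at 6.0 and 5.47. On BRAFV600E replicate 3, where Anxa10 was lowest at −1.71, Pdx1 was lowest too, at −2.31, whereas Gkn3 was lowest on replicate 4, at 0.61, and Lct highest on replicate 6, at 7.08. Aqp5 was 0.33 on replicate 3 and −0.44 on replicate 5, the reverse of the order of Anxa10 on these arrays. It was highest on replicates 1 and 2, at 0.81 and 0.73, where Anxa10 was high too, at 1.88 and 5.84. These are values over 6 arrays of the same tissue and were not tested.

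The remaining genes of the stomach lists, set down with the members, were mostly not called. Among list genes that are not members, none of 4 tested surface cell genes, 1 tested neck or gland gene, 3 chief cell, 2 parietal cell, 3 endocrine cell or 3 forestomach genes was called in BRAFV600E against Cre control. Krt7, a keratin of simple glandular epithelium and the only gene called of 4 tested in the list of other gastric or serrated lesion genes, rose by 1.77 (SE 0.23, limma adjusted p = 7.26e-04) and was called without BRAFV600E replicate 2 too, at 1.60 (limma adjusted p = 5.68e-04). Without that array Gkn3 was called too, at 1.30 (limma adjusted p = 0.0336), whereas with all arrays it was at 1.92 (limma adjusted p = 0.0631). In MEKi against Vehicle none of the non-member genes of these 7 lists was called. Krt7 read 1.79 to 2.10 in MEKi and 2.36 to 2.84 in Vehicle.

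Intestinal genes were measured beside them. Of 8 intestinal epithelium markers, Alpi rose by 1.84 (limma adjusted p = 0.00242), and Muc2, the mucin of goblet cells, and Fabp2, a fatty acid binding protein, fell by 0.82 and 0.67 (limma adjusted p = 0.017 and 0.047) in BRAFV600E. Of 7 goblet cell genes, Agr2 rose and Muc2, Tff3 and Zg16 fell. Without BRAFV600E replicate 2, Fabp2, Agr2 and Tff3 did not pass the threshold (limma adjusted p = 0.0943, 0.0584 and 0.0813), whereas Lct, not called with all arrays (−2.89, limma adjusted p = 0.158), was called at −1.45 (limma adjusted p = 0.0105). In MEKi against Vehicle none of either list was called. Of the lists of neighbouring tissues, the pancreatic genes Cela1 and Clps differed in BRAFV600E by 0.72 and −2.85, the duodenal hormone Gip by −1.19, the ileal hormones Gcg and Pyy by −1.84 and 1.99, and Des of smooth muscle by 0.94 (limma adjusted p at most 0.0276), and all 6 were called without replicate 2 too. None of these 6 was called in MEKi against Vehicle with all arrays, and Gcg was called at 1.27 without Vehicle replicate 2 (limma adjusted p = 0.0165). Without that array, Slc10a2 of the ileum list was called too, at −3.90 (limma adjusted p = 0.0158). So was Pnlip of the pancreas list, at 1.55 (limma adjusted p = 0.0298), though it was not well above background on Vehicle replicates 1, 3 and 4.

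MAPK output genes are switched on by ERK and include the feedback inhibitors of the pathway. Of 15, 11 rose in BRAFV600E, namely Dusp4, Dusp5, Dusp6, Egr1, Etv4, Etv5, Phlda1, Spred1, Spred2, Spry2 and Spry4, with a median difference over the list of 0.74. Under MEKi 6 of 15 fell, namely Dusp4, Etv4, Etv5, Phlda1, Spred1 and Spry4, with a median over the list of −1.04. Without the replicate 2 arrays 9 and 5 were called. On BRAFV600E replicate 2 and Vehicle replicate 2 the mean level of this list was 0.90 and 0.38, against 0.34 to 0.64 and 0.23 to 0.86 on the other arrays of these groups.

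The profiles nearest to those of Aqp5 and Anxa10 were sought over the 20 arrays by the root mean square difference of log2 levels, after the mean of each experiment was taken off, among 19221 genes. Nearest to Aqp5 was Tcf23, a basic helix-loop-helix factor, at 0.86, followed by Tm4sf4 at 1.26, Ankrd22 at 1.34, Slit2 at 1.40 and Mboat1 at 1.45. By the same measure Aqp5 itself spread by 3.0 about its means. All 5 were called higher in BRAFV600E, by 3.72 to 4.93, and lower in MEKi, by −4.46 to −2.25. Since these genes were picked for their likeness to Aqp5 over these same arrays, their calls follow from that choice and add no separate evidence. Nearest to Anxa10 was Aqp5, at 1.89, followed by Teddm3 at 2.0, Akp3 (an intestinal alkaline phosphatase of the duodenum) at 2.11, Sult6b2 at 2.18 and Epop at 2.18, with Anxa10's own spread at 3.87. These were less close, and of the 5 only Aqp5 was called in MEKi against Vehicle.

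**Figure D4:**
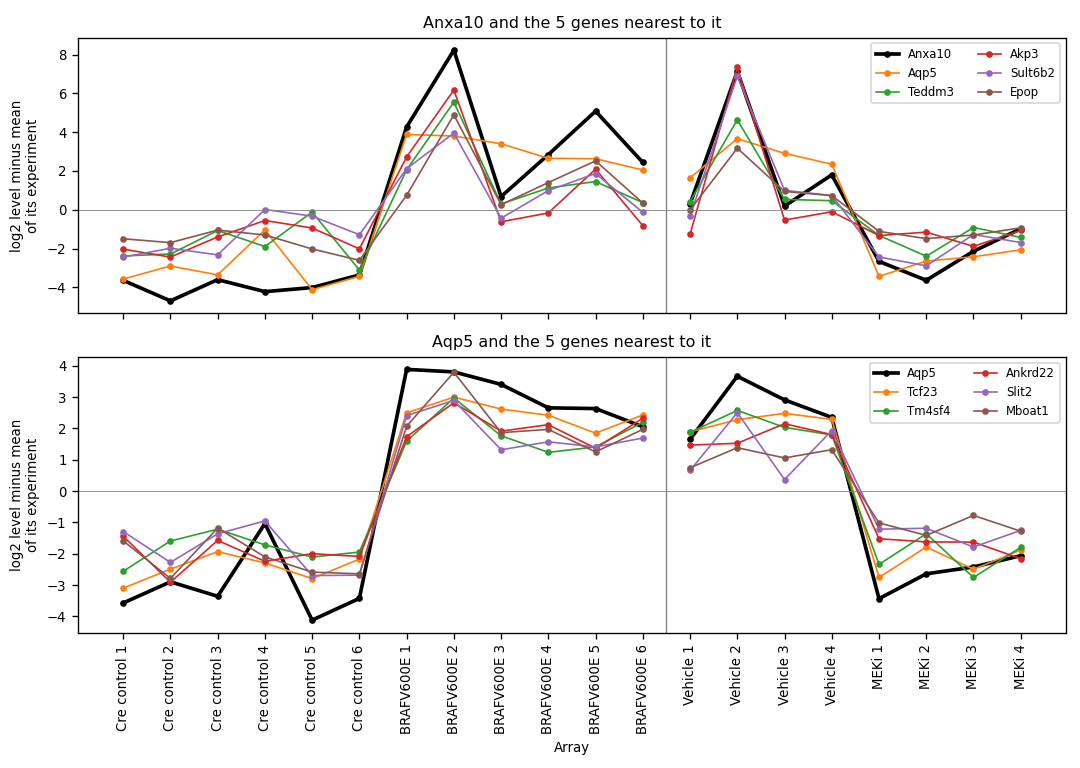
Log2 level minus the mean of its experiment (vertical axis) on each array (horizontal axis) for Anxa10 and the 5 genes nearest to it (upper panel) and for Aqp5 and its 5 (lower panel), with the genes of the title in black. Aqp5 and its neighbours form a step between the groups, whereas Anxa10, Teddm3, Akp3, Sult6b2 and Epop also peak on BRAFV600E replicate 2 and Vehicle replicate 2.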

How the data were processed

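RNA of intestinal tissue was hybridised to 20 one-colour Agilent mouse arrays, 1 mouse each. The deposited scanner files hold intensity values from Agilent Feature Extraction 10.5.1.1 (processed signal, mean signal and background). The deposited series matrix holds the processed signal itself, not on a log scale and unscaled between arrays. Probe positions are mm9, per the file headers.

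From these, log2 processed signal minus the 75th percentile of each array was computed. Control and outlier spots were left out and copies of a probe averaged. The probe with the highest mean over all arrays stood for its gene, and a gene was tested where that probe passed the scanner's background flag on 6 of 12 or 4 of 8 arrays or more. Each experiment was fitted apart with limma 3.58.1 (R 4.3.3), with no covariate. Calls were made at a Benjamini-Hochberg adjusted p under 0.05 over all genes. The fit was tested on simulated data.

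Replicate numbers follow accession order and only name mice. No arrays were identical. Precision is limited by how many there are. The text names every member with all probes, called list genes, Braf and, for Anxa10 and Aqp5, the 5 nearest profiles. The members and lists were chosen with earlier results of these data known. A treatment text on all samples describes a statin experiment that these groups do not match and was not used.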

Additional observations from a re-analysis of the deposited data

Results flagged for a closer look

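In 56 sets of a probe and a group, 9 had an array whose gap to the nearest other array was above the 95% limit for its group size, where chance flags about 1 set in 20. The sets come from the same 20 arrays and are not independent, so the count is no test against that rate. BRAFV600E replicate 2 and Vehicle replicate 2, which drew 8 of the 9 flags, had already been singled out from these data. BRAFV600E replicate 2 was such an array in 6 sets. It was highest for Tff2 (6.23), Ctse (5.69), Tff1 (5.18), the second Muc6 probe (1.24), Vsig1 (0.13) and Gkn2 (−0.87). Vehicle replicate 2 was such an array in 2 sets, highest for Tff2 (4.52) and Tff1 (1.16). The remaining set was the second Gkn1 probe, highest on Cre control replicate 5 (−5.11), where it was not well above background.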

How the results depend on the processing

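Anxa10 and Aqp5 were called higher in BRAFV600E under all 22 alternatives tried, at 4.79 to 10.17 and 3.26 to 6.95, and Aqp5 was called lower in MEKi under all 16, at −5.62 to −3.44. Anxa10 in MEKi was lower and not called under any of the 16 (limma adjusted p 0.0678 to 0.534). Every alternative kept the same probe for its gene, so none of them varied the choice of probe. With every probe tested, the second Anxa10 probe was not called in BRAFV600E (limma adjusted p = 0.0524). The second Aqp5 probe was called there at 1.26 (limma adjusted p = 0.0158) and not in MEKi (limma adjusted p = 0.28). Ctse in BRAFV600E was called with no scaling between arrays (3.53, limma adjusted p = 0.0354) and with slide as a block, so that 3 members were called in place of 2.

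In BRAFV600E against Cre control 2459 genes were called, 49.6% of them higher. The count was 9337 with no scaling (98.1% higher, the median of all genes moving by 0.81), 3892 with normexp background correction, 3695 with every probe tested, 1568 with slide as a block (31.9% higher), 731 within slide 1 (27.1% higher, with fewer arrays) and 1472 to 2950 without single arrays. In MEKi against Vehicle 374 were called (54.3% higher), against 72 with no scaling, 234 with no filter, 1120 with array weights, 54 with the Y-linked level as covariate (42.6% higher) and 76 to 370 without single arrays. Apart from these constructions, the cause was not tested.

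Members that were never called changed sign. Muc5ac in BRAFV600E was 0.66 and Muc6 0.68 with no scaling. Muc6 was 0.10 and Gkn1 −0.047 both with slide as a block and within slide 1, and Gkn1 was −0.32 with normexp. Without single arrays, Gkn1 ran from −0.15 to 0.30 and Muc6 from −0.39 to 0.034 in BRAFV600E, and Muc5ac from −0.0066 to 0.18 in MEKi. The filter removed Ctse and Gkn1 where every array of a group had to pass. With no filter, Tff2 in BRAFV600E was at 2.77 (SE 1.72, limma adjusted p = 0.359) and Vsig1 at 1.26 (SE 1.14, limma adjusted p = 0.562). No paired analysis was possible because the replicate numbers follow accession order and pair no mice. Low signal limits Vsig1, Gkn2 and Tff2, below background on most arrays.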
